A study of Mus musculus with 9 samples.

Results

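The genes described are 6 voltage-gated sodium channel subunits and the muscle chloride channel gene *Clcn1*, measured by bulk RNA sequencing of mouse left ventricle. The sodium channel genes are the pore-forming *Scn4a*, *Scn7a* and *Scn10a* and the auxiliary *Scn2b*, *Scn3b* and *Scn4b*. These 7 genes, out of 52636 Ensembl genes counted, were chosen from earlier measurements of the same libraries, in which the level of *Vdac2* in each library was set beside that of other genes. Their levels beside *Vdac2* are therefore given as a description, without a test, and the tests reported compare the deposited genotype labels.

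Voltage-gated sodium channels open on depolarization and carry the rapid inward current that starts the action potential in muscle and nerve. Each channel has a pore-forming alpha subunit, and small beta subunits with a single membrane span bind to it and modify its gating and its place in the membrane. *Scn4a* encodes Nav1.4, the main sodium channel of skeletal muscle. *Scn10a* encodes Nav1.8, best known from sensory neurons and studied in cardiac conduction, and *Scn7a* encodes Nax, an atypical member of the family that is known for sensing extracellular sodium. *Clcn1* encodes ClC-1, the channel of the resting chloride conductance of skeletal muscle, loss of which causes myotonia.

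The tissue came from 16-week-old C57BL6J mice. KO mice carried floxed *Vdac2* alleles and αMHC-Cre, a Cre recombinase driven in cardiac myocytes, and their littermates with either the flox allele or Cre alone served as WT, so *Vdac2* was to be lost from myocytes and kept in the other cells of the ventricle. Of the 9 libraries, numbers 1 to 5 carry the WT label and numbers 6 to 9 the KO label, numbered as in the sample titles. Each label names its own sample, but none says that each came from a separate animal, so p-values measure the spread between these samples. Levels are given as CPM, counts per 1000000 of the library size after TMM normalization, and differences as log2 fold changes ± standard error (SE) with KO-labelled libraries over WT-labelled ones. In each test the p is from edgeR's quasi-likelihood fit.

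The level of *Vdac2*, the targeted gene, did not follow the labels. It read 20.2, 366, 58.5, 365 and 21.3 CPM in libraries 1 to 5 and 384, 20.5, 421 and 19.1 CPM in libraries 6 to 9. Thus 5 libraries were under 100 CPM, the highest of them library 3 at 58.5 CPM, 4 were over 300 CPM, the lowest of them library 4 at 365 CPM, and both sets contain both labels. No library was moved to another group. Each direction below is between libraries labelled KO and libraries labelled WT, and *Vdac2* went against the label in libraries 1, 3, 5, 6 and 8. Whether the labels of any of these libraries were exchanged cannot be told from the sources used here. Every difference between the labels below is subject to that doubt. The paper, which left out 1 WT sample, reports *Scn4a* and *Scn4b* as lower and the natriuretic peptide gene *Nppa* as higher in KO mice. Between the labels of all 9 libraries the log2 differences were 0.15 for *Scn4a*, 0.48 for *Scn4b* and -0.81 for *Nppa*. None of these had an adjusted p under 0.05 (edgeR). *Nppa* read 951, 73.8, 3347, 80.4 and 157 CPM in libraries 1 to 5. In libraries 6 to 9 it read 104, 401, 72.8 and 1523 CPM. Its WT mean of 922 CPM, against a KO mean of 525 CPM, thus included library 3, which was above every other library. A difference without library 3 is not given for *Nppa*. Depth ran from 27345052 to 44673988 counts. *Xist* stayed at or under 0.152 CPM with the WT label and at or over 335 CPM with the KO label, and the labels also coincide with the sequencing lane, so that label, sex and lane cannot be told apart. Library 3 stood apart, with 9.07% of its counts on mitochondrially encoded genes against 16.8% to 19.2% elsewhere, and with a summed level of 10 cardiac myocyte markers of 54222 CPM against 134479 to 169138 CPM. Of the atrial markers *Sln* (at most 0.0588 CPM) and *Myl7* (at most 1.13 CPM) were near 0, and the list's sum of 81.5 to 3352 CPM (WT label) and 79.4 to 1531 CPM (KO label) was nearly all *Nppa*, at 3347 CPM in library 3 the natriuretic peptide gene's highest level.

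The promoter sequences of *Scn4a*, *Scn4b* and *Clcn1* are shown first, since these 3 genes had their 4 highest levels in the same libraries. Each runs 5′ to 3′ from 250 bases before the RefSeq transcript start to 50 after it, on GRCm38.p6, at chr11:106349341-106349640 (minus strand) for *Scn4a*, chr9:45138374-45138673 (plus strand) for *Scn4b* and chr6:42286435-42286734 (plus strand) for *Clcn1*. Capitals mark matches, on either strand, to any of 4 motifs. They are the TATA box core TATAAA, the GC box (GGGCGG, bound by Sp factors), the E box CAGCTG and, for MEF2, a family of muscle transcription factors, the site outline CTANNNNTAG, which can contain the TATA box core.
Scn4a: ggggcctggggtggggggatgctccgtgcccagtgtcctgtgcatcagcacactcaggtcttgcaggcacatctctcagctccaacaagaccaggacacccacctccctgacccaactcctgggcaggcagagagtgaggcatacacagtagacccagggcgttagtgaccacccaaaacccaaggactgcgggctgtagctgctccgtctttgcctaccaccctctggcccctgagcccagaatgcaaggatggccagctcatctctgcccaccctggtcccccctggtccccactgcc
Scn4b: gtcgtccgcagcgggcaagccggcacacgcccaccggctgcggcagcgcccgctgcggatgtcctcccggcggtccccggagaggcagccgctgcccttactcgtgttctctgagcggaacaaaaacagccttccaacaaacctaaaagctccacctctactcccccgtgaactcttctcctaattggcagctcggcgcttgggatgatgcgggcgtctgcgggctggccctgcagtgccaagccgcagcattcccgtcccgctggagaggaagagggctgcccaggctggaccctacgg
Clcn1: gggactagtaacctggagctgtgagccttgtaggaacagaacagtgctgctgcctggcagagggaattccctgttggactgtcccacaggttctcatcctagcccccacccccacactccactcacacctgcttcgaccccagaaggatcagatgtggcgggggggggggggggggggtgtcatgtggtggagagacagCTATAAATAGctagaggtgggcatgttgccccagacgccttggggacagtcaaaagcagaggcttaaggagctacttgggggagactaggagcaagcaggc
Of these 3, only the *Clcn1* window holds a match, CTATAAATAG, which begins 51 bases before the start and contains the TATAAA match. CTANNNNTAG occurs in 3.69% and TATAAA in 13.6% of 32851 RefSeq promoter windows of 300 bases. The E box is in 16.3% and the GC box in 35.7% of them. The RefSeq starts of *Scn4a* and *Scn4b* lie 3898 and 229 bases inside the GENCODE gene models, and that of *Clcn1* coincides with its model. Of the other members, *Scn7a* has a CAGCTG match and a GC box 150 and 126 bases before its start, *Scn2b* and *Scn10a* have no match to these letters, and 6 of the 7 genes had a promoter entry.

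*Scn4a* (ENSMUSG00000001027, chromosome 11 of GRCm38, 106318592 to 106353288, minus strand) varied widely between libraries of the same label. Its level was 10.6, 29.2, 0.917, 29.3 and 19.1 CPM for libraries 1 to 5 and 27.7, 15.6, 27.1 and 8.50 CPM for libraries 6 to 9. The 4 highest levels, 27.1 CPM or more, were those of libraries 2, 4, 6 and 8, the next was 19.1 CPM in library 5, and the ranges of both labels overlapped. Libraries 2, 4, 6 and 8 were also the 4 highest in *Vdac2*, a pattern that 719 of the 16322 tested genes shared with *Scn4a* (4.41%). No label of the series gives this division and it was not tested. Between the labels, with means of 17.8 ± 12.3 CPM (SD, n = 5, WT) and 19.7 ± 9.34 CPM (SD, n = 4, KO), the log2 difference was 0.15 ± 0.74 SE and the adjusted p 0.94 (edgeR). It turned to -0.17 when library 3 was left out.

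*Scn4b* (ENSMUSG00000046480, chromosome 9, 45138395 to 45154152, plus strand) encodes the beta4 subunit, which is linked by a disulfide bond to the alpha subunit and favours resurgent sodium current. Libraries 1 to 5 held 8.83, 38.5, 0.593, 21.4 and 14.1 CPM, and libraries 6 to 9 held 28.7, 16.7, 38.1 and 9.40 CPM. Libraries 2, 4, 6 and 8 were again the highest, each at 21.4 CPM or more, followed by library 7 at 16.7 CPM. Leaving library 3 aside, the highest *Scn4b* level was 4.36-fold the lowest, against 3.45-fold for *Scn4a*. Between the labels the means were 16.7 ± 14.4 CPM (SD, n = 5, WT) and 23.2 ± 12.7 CPM (SD, n = 4, KO), a log2 difference of 0.48 ± 0.82 SE (adjusted p = 0.84, edgeR), or 0.16 without library 3.

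*Clcn1* (ENSMUSG00000029862, chromosome 6, 42286685 to 42315756, plus strand) had the same 4 highest libraries and the same lowest library. Its values were 2.76, 12.1, 0.216, 8.75 and 4.52 CPM across libraries 1 to 5, and 11.3, 5.38, 7.94 and 2.05 CPM across libraries 6 to 9. The 4 libraries above 7.9 CPM were 2, 4, 6 and 8, and outside library 3 the levels spanned 5.91-fold, the widest span of the 7 genes. Library 3 had 8 *Clcn1* counts, 34 *Scn4a* counts and 22 *Scn4b* counts, which put it 9.52-, 9.26- and 14.9-fold below the next lowest library. The label means were 5.68 ± 4.77 CPM (SD, n = 5, WT) and 6.67 ± 3.93 CPM (SD, n = 4, KO), and the log2 difference of 0.24 ± 0.84 SE (adjusted p = 0.92, edgeR) became -0.082 without library 3. *Clcn1* shares 445 exon bases with *Fam131b* on the opposite strand. The libraries are stranded but the strand setting of the counting is not given in the sources used here. *Fam131b* was at 0.636 to 2.67 CPM and was highest in library 3.

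**Figure D1:**
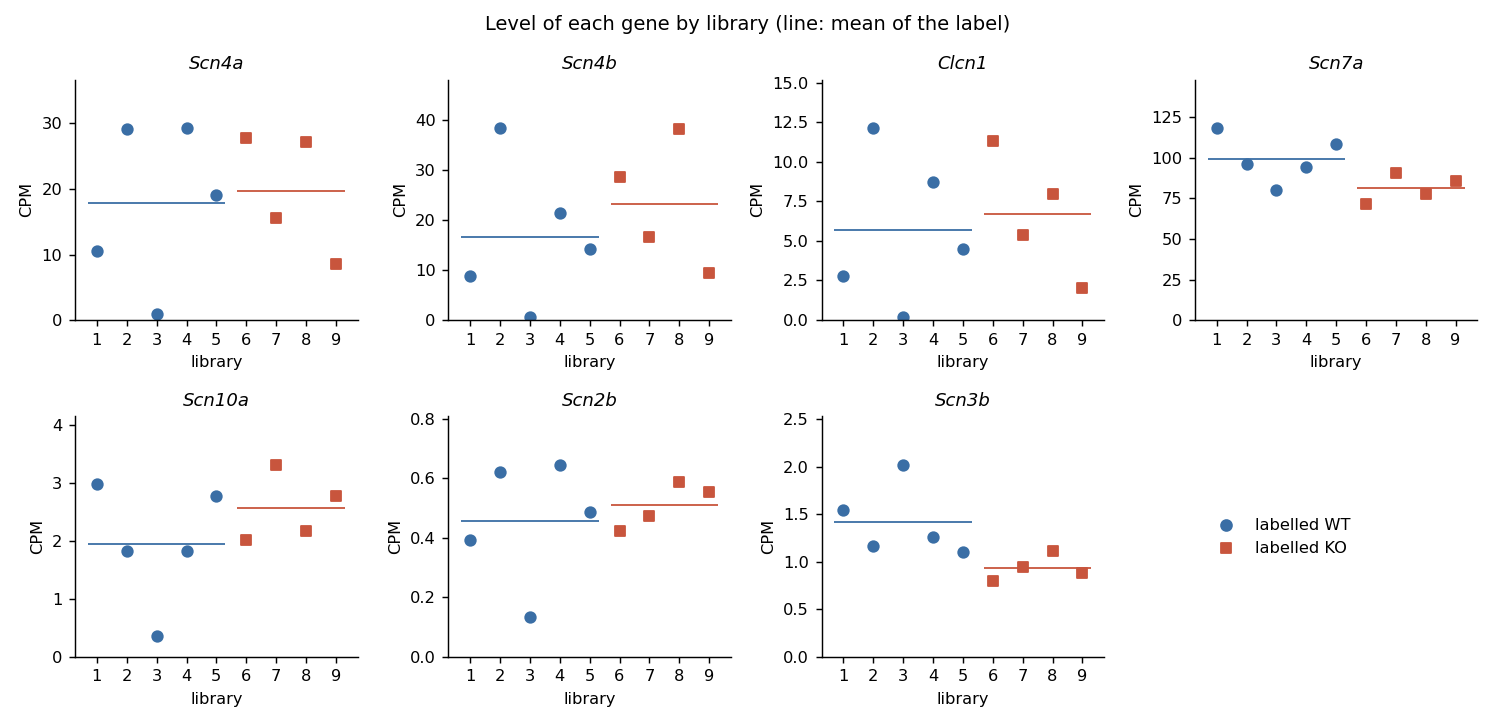
Level of each gene (CPM, linear axis from 0) in libraries 1 to 9, with circles for libraries labelled WT, squares for those labelled KO and a line at the mean of each label. Scn4a, Scn4b and Clcn1 are high in libraries 2, 4, 6 and 8 and lowest in library 3, whereas Scn10a outside library 3 is high in libraries 1, 5, 7 and 9.

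The cell types that could bring these transcripts into a ventricular sample were examined through marker lists. The 12 markers of skeletal muscle, the tissue in which *Scn4a* and *Clcn1* are best known, summed to 22.3 to 37.2 CPM with the WT label and 20.8 to 32.4 CPM with the KO label. Library 3, lowest in *Scn4a* and *Clcn1*, had the highest sum, but 7 of the 12 markers were lowest and 4 highest there. *Mybpc2* alone accounted for 17.1 to 28.9 CPM, *Myod1* had a count in library 3 alone (0.0270 CPM), and no marker was at 0 in every library. The sum over the 10 cardiac myocyte markers was highest in libraries 2, 4, 6 and 8, at 155064, 153737, 169138 and 159451 CPM. Outside library 3 this sum spanned only 1.26-fold, from 134479 to 169138 CPM, and *Ttn* alone gave 83226 to 103841 CPM of it. Singly, 3 of the 10 markers had libraries 2, 4, 6 and 8 as their 4 highest, and 9 of the 10 were lowest in library 3. Summed endothelial markers were lowest in library 3 (495 CPM against 869 to 1199), as were 4 of the 5 singly, and summed macrophage and leukocyte markers highest (1451 against 257 to 592), as were all 6 singly. Smooth muscle and pericyte markers had their lowest sum there (899 against 1222 to 1452 CPM), but the 6 markers were divided, 3 of them lowest in library 3 and 2 highest. Outside library 3, several sums were arranged opposite to *Scn4a*, *Scn4b* and *Clcn1*, with libraries 1, 5, 7 and 9 each above libraries 2, 4, 6 and 8. The macrophage and leukocyte sums were 514, 592, 444 and 464 CPM in libraries 1, 5, 7 and 9, and 376, 396, 257 and 281 CPM in libraries 2, 4, 6 and 8. The fibroblast, skeletal muscle, neuronal and atrial sums had the same arrangement, but the single markers of these lists did not all share it. The 4 highest levels of *Dcn* (fibroblast) were in libraries 1, 2, 4 and 5, and those of *Stmn2* (neuronal) in libraries 1, 2, 4 and 6. The atrial sum was nearly all *Nppa*, and the 4 highest levels of *Myl7* were in libraries 1, 3, 4 and 5. The part of these cell types in the levels was not tested. In bulk tissue, fewer cells of a type and less RNA per cell cannot be told apart.

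*Scn7a* (ENSMUSG00000034810, chromosome 2, 66673425 to 66784914, minus strand) was the most abundant member and, over all 9 libraries, the one with the narrowest span. Counts gave 118, 96.0, 79.9, 94.3 and 108 CPM in libraries 1 to 5 and 71.6, 90.6, 77.6 and 86.0 CPM in libraries 6 to 9, so the highest level was 1.66-fold the lowest. Libraries 1 and 5 were the highest of the WT label and libraries 7 and 9 the highest of the KO label. The 2 labels overlapped between 79.9 and 90.6 CPM. Means were 99.4 ± 14.7 CPM (SD, n = 5) with the WT label and 81.4 ± 8.53 CPM (SD, n = 4) with the KO label. This log2 difference of -0.29 ± 0.13 SE did not pass the test (unadjusted p = 0.051, adjusted p = 0.68, edgeR). Without library 3 it was -0.36 ± 0.094 SE, with an adjusted p of 0.18 by edgeR.

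For *Scn7a* the candidate sources among the marker lists were glial, fibroblast and neuronal cells. The 8 Schwann cell markers summed to 15.2 to 27.8 CPM (WT label) and 21.03 to 24.04 CPM (KO label), and 0 of the 8 was without counts throughout. Their lowest sum was in library 3, which was lowest for 3 of the 8 markers, whereas *Scn7a* was lowest in library 6 (71.6 CPM, Schwann sum 21.03) and library 8 (77.6 CPM, Schwann sum 24.04). The 8 fibroblast markers summed to 9634 CPM in library 3 and to 1286 to 2210 CPM elsewhere. Of these markers 6 were highest in library 3, 1 was lowest and 1 was within the range of the others, while *Scn7a* in library 3 was within the range of the other libraries. Elsewhere the fibroblast sum moved with *Scn7a* within each label. It was 2109.6 and 2107 CPM in libraries 1 and 5 against 1552 and 1661 CPM in libraries 2 and 4. In libraries 7 and 9 it was 2209.9 and 2209 CPM against 1407 and 1286 CPM in libraries 6 and 8. Across the labels it did not move with *Scn7a*. Libraries 7 and 9 had higher fibroblast sums than libraries 2 and 4 but less *Scn7a* (90.6 and 86.0 against 96.0 and 94.3 CPM). The neuronal sum was 101.9 CPM in library 3 and 10.5 to 26.1 CPM elsewhere. Outside library 3 the neuronal, macrophage, skeletal muscle and atrial sums were also higher in libraries 1 and 5 than in libraries 2 and 4. They were likewise higher in libraries 7 and 9 than in libraries 6 and 8. The part of any of these cells in the *Scn7a* level was not tested.

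*Scn10a* (ENSMUSG00000034533, chromosome 9, 119608456 to 119719322, minus strand) was a low transcript with the opposite arrangement of libraries. Levels were 2.99, 1.83, 0.351, 1.83 and 2.78 CPM with the WT label and 2.02, 3.32, 2.18 and 2.77 CPM with the KO label, from 13 to 126 counts. The 4 highest levels, all at 2.77 CPM or more, belonged to libraries 1, 5, 7 and 9, which had the 4 lowest *Vdac2* levels. This was the top set of 216 tested genes (1.32%). The next highest was library 8 at 2.18 CPM, whose exact 95% Poisson interval of 1.71 to 2.73 CPM overlapped that of library 9 (2.30 to 3.31 CPM). The order of libraries 8 and 9 is thus uncertain at this depth, and they were not tested against each other. The label means were 1.95 ± 1.04 CPM (SD, n = 5, WT) and 2.57 ± 0.596 CPM (SD, n = 4, KO), a log2 difference of 0.40 ± 0.48 SE with an adjusted p of 0.77 (edgeR), or 0.12 without library 3. Of the 11 neuronal markers, *Snap25* (at most 0.114 CPM) and *Th* (at most 0.0462 CPM) were near or at 0, and the sum was 101.9 CPM in library 3, where *Scn10a* was lowest, against 10.5 to 26.1 CPM elsewhere. Most of that sum came from 2 markers, at 54.7 and 42.2 CPM, and of the 11 markers 4 were highest in library 3, 1 was lowest and 6 were within the range of the others. The 9 conduction system markers summed to 23.8 to 37.2 CPM with the WT label and 33.8 to 43.1 CPM with the KO label, with the lowest sum in library 3, where 5 of the 9 were lowest and 2 highest. Outside library 3 the neuronal sum, like *Scn10a*, was higher in libraries 1, 5, 7 and 9 (22.2, 17.3, 17.3 and 26.1 CPM) than in libraries 2, 4, 6 and 8 (14.2, 12.2, 12.5 and 10.5 CPM), and the fibroblast and macrophage sums were placed likewise. In *Uchl1* alone these levels were 10.9, 7.35, 7.49 and 14.2 CPM against 4.13, 3.27, 4.38 and 3.27 CPM. Other neuronal markers were divided. The 4 highest levels of *Nefl* were in libraries 1, 5, 7 and 9. Those of *Stmn2* were in libraries 1, 2, 4 and 6, and those of *Elavl4* in libraries 5, 6, 7 and 8. The part of these cells in the *Scn10a* level was not tested.

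**Figure D2:**
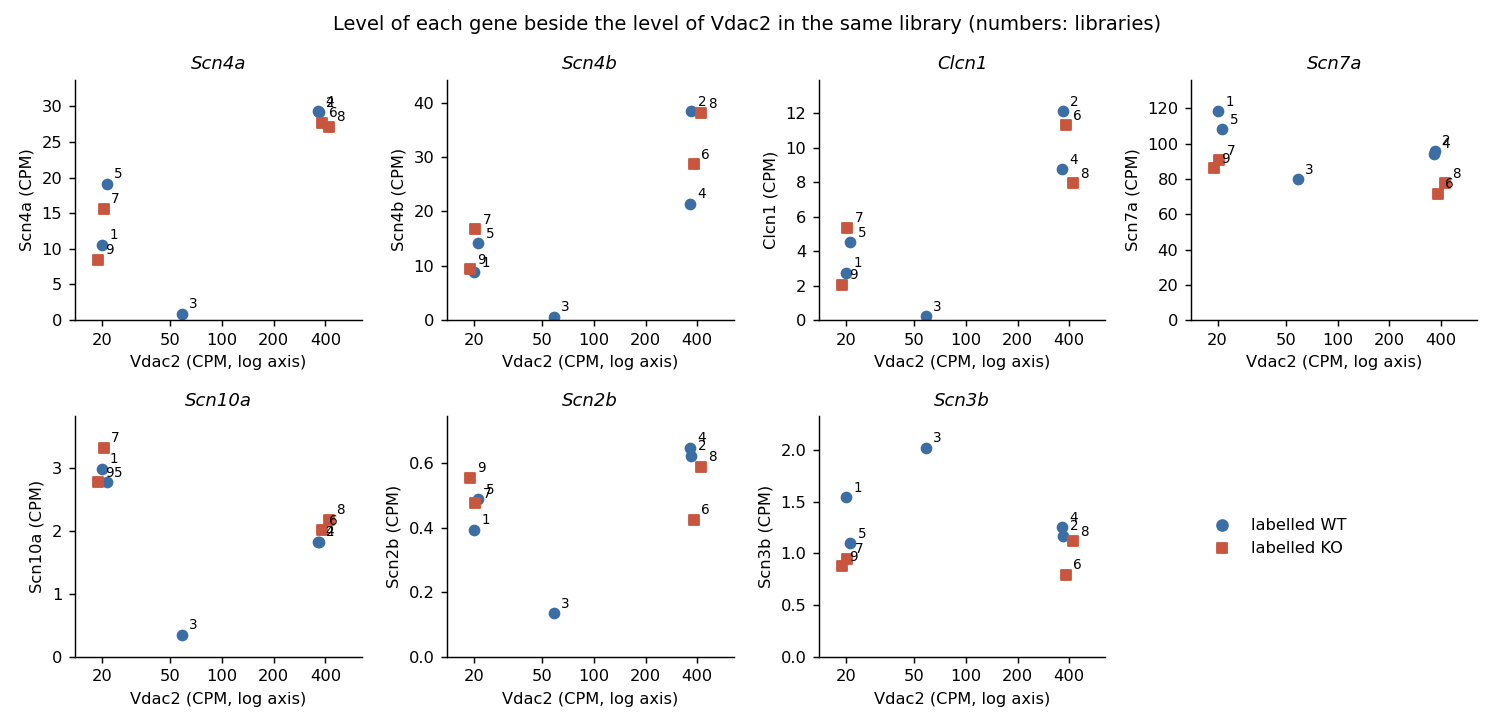
Level of each gene (CPM, linear axis) against the level of Vdac2 (CPM, log axis) in the same library. Points carry library numbers, with circles labelled WT and squares labelled KO. Both labels occur at both ends of the Vdac2 axis, and library 3, at 58.5 CPM of Vdac2, lies below all other libraries for Scn4a, Scn4b, Clcn1, Scn10a and Scn2b.

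The remaining beta subunits were low, and *Scn2b* had the fewest counts of the 7 genes. *Scn2b* (ENSMUSG00000070304, chromosome 9, 45117782 to 45130070, plus strand), the beta2 subunit and the 5′ neighbour of *Scn4b* at 8324 bases, had 5 counts in library 3 and 12 to 24 counts elsewhere. Its levels were 0.394, 0.622, 0.135, 0.647 and 0.488 CPM, then 0.424, 0.475, 0.588 and 0.554 CPM. Outside library 3 the intervals of the lowest (library 1, 0.204 to 0.688 CPM) and the highest library (library 4, 0.377 to 1.04 CPM) overlapped. The order of these libraries is thus uncertain at this depth, and they were not tested against each other. The adjacent *Scn4b* spanned 4.36-fold outside library 3. Labels differed by 0.18 ± 0.38 SE on the log2 scale for *Scn2b* (adjusted p = 0.87, edgeR), and by -0.072 without library 3.

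*Scn3b* (ENSMUSG00000049281, chromosome 9, 40269217 to 40291618, plus strand), which encodes beta3, was the one member that peaked in library 3. It was measured at 1.54, 1.17, 2.02, 1.26 and 1.10 CPM in the WT-labelled libraries and 0.796, 0.949, 1.12 and 0.877 CPM in those labelled KO. The labels overlapped only through library 8, at 1.12 CPM, and library 5, at 1.10 CPM. The means were 1.42 ± 0.378 CPM (SD, n = 5, WT) and 0.935 ± 0.137 CPM (SD, n = 4, KO). With a log2 difference of -0.60 ± 0.23 SE, *Scn3b* had an unadjusted p of 0.028 and an adjusted p of 0.68 (edgeR), and the difference was -0.45 without library 3. In this fit of all 9 libraries *Scn3b* was thus the 1 member of 7 with an unadjusted p under 0.05, against 6.11% of all tested genes. Under some alternatives *Scn7a* was also under 0.05, and *Scn3b* was not.

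**Figure D3:**
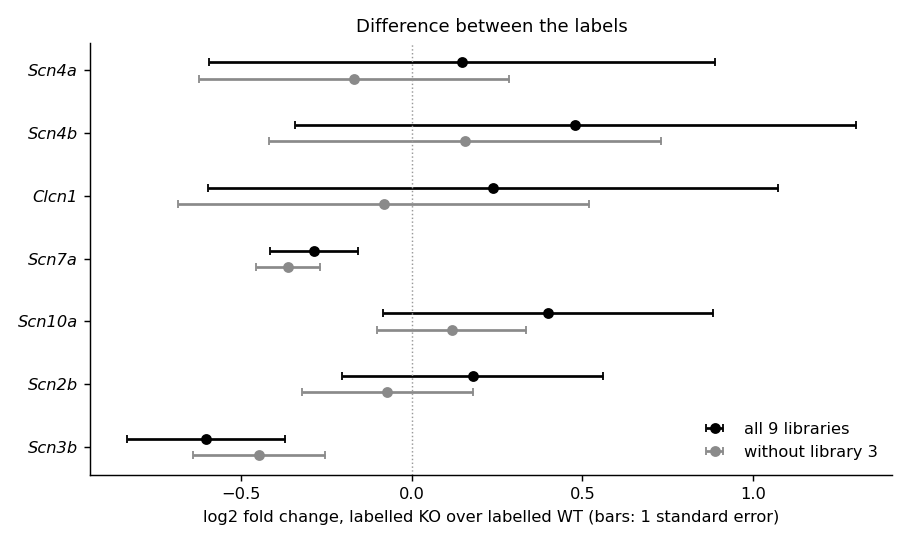
Log2 fold change between libraries labelled KO and WT for each gene, with bars of 1 standard error from edgeR's quasi-likelihood fit, for all 9 libraries (black) and without library 3 (grey). Scn7a and Scn3b are below 0 in both fits, and Scn4a, Clcn1 and Scn2b change sign when library 3 is left out.

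Across the 7 genes, all of which passed the expression filter, 0 had an adjusted p under 0.05 between the labels, where 9 of 16322 genes did (0.0551%), and 0 had labelled groups that did not overlap, where 4.36% of genes did. 5 members had a higher and 2 a lower estimate in the libraries labelled KO, where 7717 of the 16322 tested genes were higher and 8605 lower. The members' median log2 fold change was 0.18, against -0.018 over all tested genes. The members' tally turned without library 3, when only *Scn4b* (0.16) and *Scn10a* (0.12) were above 0 and the other members were below 0. With DESeq2, 70 genes had an adjusted p under 0.05, and with library quality weights 79, in neither case a member. Without library 3 the count was 62, again with no member among them.

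Levels of different genes were compared per kilobase of exon. *Scn7a* led in every library, at 9.75 to 16.1 CPM per kilobase, and made up 43.8% (library 8) to 93.7% (library 3) of the sum over the 7 genes. In the 8 libraries other than library 3 the order went on with *Scn4b*, *Scn4a* and *Clcn1*. The ranges of *Scn4b* (0.119 to 7.72 CPM per kilobase), *Scn4a* (0.130 to 4.17) and *Clcn1* (0.0397 to 2.24) overlapped, so these neighbours were ordered within libraries but not across them. The ranges of *Scn10a* (0.0440 to 0.417 CPM per kilobase) and *Scn3b* (0.146 to 0.370) also overlapped, and *Scn2b* was lowest in all 9 libraries (0.0290 to 0.139). Per kilobase, *Clcn1* was 0.305 to 0.540 times *Scn4a* across the 9 libraries, a narrower range than that of either level. The ratio of *Scn4b* to *Scn4a* was 0.914 in library 3 and 1.03 to 1.99 in the others.

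**Figure D4:**
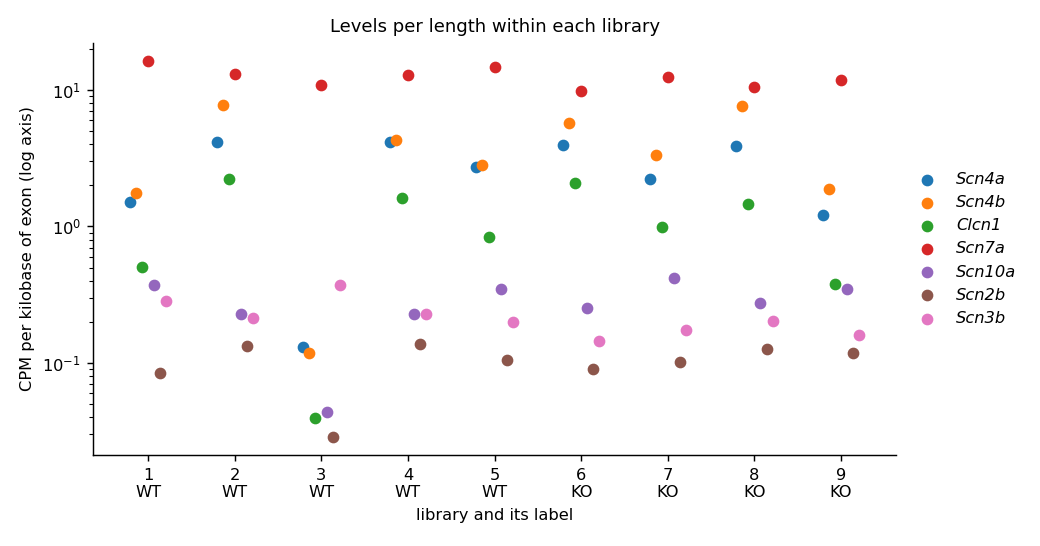
CPM per kilobase of exon (log axis) of the 7 genes in each library, with the deposited label under the library number. Scn7a is highest and Scn2b lowest in every library, and the distance between Scn7a and the next gene is widest in library 3.

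The genes most like each member were sought among tested genes of at least 5 CPM on average, by Pearson correlation of log2(CPM + 0.5) over the 9 libraries. These values are descriptive, as all points share the same libraries. For *Scn4a* the first was *Arhgef15*, a guanine nucleotide exchange factor (r = 0.996, and 0.980 over the 8 libraries without library 3). *Scn4b* was most like *Pdp2*, a pyruvate dehydrogenase phosphatase (0.988 and 0.949), and *Clcn1* most like *Itpkb*, an inositol trisphosphate kinase (0.992 and 0.977). For *Scn7a* the nearest were the complement genes *C4b* (0.967 and 0.966) and *C3* (0.958 and 0.963). *Fam126a* led for *Scn10a* (0.986 and 0.912), *Gbp9*, of the guanylate-binding protein family, for *Scn2b* (0.993 and 0.970), and *Aff4*, a scaffold of the super elongation complex, for *Scn3b* (0.962 and 0.911). The other genes among the 3 nearest had r of at least 0.948 over the 9 libraries and 0.880 over the 8.

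Other genes of sodium and chloride handling were read from 4 lists. Of the 9 remaining sodium channel subunit and leak channel genes, 5 were tested, 2 with a higher and 3 with a lower estimate in the libraries labelled KO (median log2 fold change -0.12). Of the 19 sodium channel partner genes, among them cytoskeletal anchors and intracellular FGFs, all were tested, 12 higher and 7 lower (median 0.099). The chloride channel list had 10 of 13 genes tested, 6 higher and 4 lower (median 0.026), and the list of sodium transporters 11 of 13, 6 higher and 5 lower (median 0.010). Over all 16322 tested genes 7717 were higher and 8605 lower (median -0.018). In each of the 4 lists 0 genes had an adjusted p under 0.05. An unadjusted p under 0.05 (edgeR) was found for *Nalcn* (0.0098), a leak channel gene, and *Clcn5* (0.042), both lower with the KO label. No gene of the partner or transporter lists had one, and over all tested genes 6.11% did. *Nalcn* was at 2.09 to 2.93 CPM with the WT label and 1.49 to 1.94 CPM with the KO label, without overlap, as were 4.36% of tested genes. Unlike *Clcn1*, its relative *Clcn4*, which encodes an endosomal chloride-proton exchanger, stayed between 113 and 128 CPM outside library 3 and was at 78.9 CPM in library 3. *Clcn5*, an endosomal exchanger of the same family, reached 42.3 CPM in library 3 and was at 6.52 to 12.5 CPM in the others.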

How the data were processed

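Total RNA of the left ventricle was depleted of rRNA and sequenced as stranded, 50 bp single-end libraries. The submitters' processing notes name STAR 2.7.2c, featureCounts 1.6.3 and DESeq2 with build GRCm38, and the annotation release, strand setting and handling of multi-mapping reads are not given in the sources used here. The authors deposited raw counts for 52636 genes in 9 libraries, without normalization. Symbols and coordinates were taken from GENCODE M21 (52489 identifiers matched) and promoters from RefSeq.

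Counts were filtered with filterByExpr, scaled by TMM and tested with edgeR 4.0.16 in R 4.3.3 (robust quasi-likelihood fit, KO against WT by label, no covariate), with Benjamini-Hochberg adjustment over 16322 genes. The script was tested on simulated data. CPM values use the TMM library sizes, and 3 counts equal 0.0693 to 0.114 CPM, a floor that covers counting error only. Libraries were not regrouped by *Vdac2*. No library pair agreed within sampling noise (lowest chi-square per degree of freedom 7.35). The study removed 1 WT sample for RNA quality without naming it, so all 9 libraries were used.

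The members, lists and markers were chosen with earlier results of these data known. Named genes are the 7 members, *Vdac2*, the 3 genes nearest to each member by correlation, and up to 4 abundant genes per list. *Clcn5*, *Nalcn*, *Xist*, *Fam131b* and single markers were named after their values were seen. Alternatives were RLE and upper-quartile scaling, DESeq2 1.42.0, testing without filterByExpr or with a minimum of 10 counts in each library, limma 3.58.1 voom with quality weights, mitochondrially encoded genes left out, each library left out, and the study's filters (over 1.5-fold, mean count over 30).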

Additional observations from a re-analysis of the deposited data

How the results depend on the processing

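No member had an adjusted p under 0.05 in any of the 110 fits of a member under an alternative, the lowest being 0.12 for *Scn7a* with library quality weights, and 103 of these kept the direction. The unadjusted p of *Scn7a* was under 0.05 in several, among them RLE scaling (0.043, edgeR), DESeq2 (0.033), library quality weights (0.0014, limma voom) and without library 3 (0.0026, edgeR). That of *Scn3b* rose over 0.05 without library 1, 6, 7 or 9 (0.054 to 0.076, edgeR). With library quality weights *Scn2b* turned to -0.080, and *Scn4a* (0.034), *Scn10a* (0.096) and *Scn3b* (-0.40) moved towards 0. Leaving out 1 library at a time, the log2 difference ranged from -0.17 to 0.40 for *Scn4a* (below 0 without library 3, 6 or 8), from -0.14 to 0.72 for *Clcn1* (below 0 without library 3 or 6), from -0.072 to 0.34 for *Scn2b* (below 0 without library 3) and from -0.23 to 0.86 for *Vdac2* (below 0 without library 6 or 8). *Scn4b* (0.13 to 1.05) and *Scn10a* (0.12 to 0.60) remained above 0, and *Scn7a* (-0.36 to -0.22) and *Scn3b* (-0.70 to -0.45) below 0. The cause was not tested. Of all tested genes, 9 had an adjusted p under 0.05 by edgeR, 70 by DESeq2, 79 with library quality weights and 5 to 62 with a library left out (62 without library 3, 5 without library 1, 2 or 4). At least 10 counts in every library left 0, with 875 at an unadjusted p under 0.05, and that filter removed *Clcn1* and *Scn2b* from the test. No paired analysis was possible because the labelled groups share no replicate number. Depth limits *Scn2b* most, with 5 to 24 counts, and then *Scn3b* (30 to 75 counts) and, in library 3, *Clcn1* (8 counts) and *Scn10a* (13 counts).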
